A study of Mus musculus with 30 samples.

Results

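The genes described here are 34 genes that neurons use to release transmitter and to build their cytoskeleton, out of 33924 genes in a table of RNA-seq read counts from mouse thyroid. They were listed by name and read in all 10 groups of the series, with the question of which loss of a SWI/SNF subunit goes with their expression. All 34 were found, Map2 under its older symbol Mtap2, and 31 of them had enough counts to be tested among 19016 genes. The list holds 11 genes of synaptic vesicle release, 5 genes of transmitter synthesis and loading, 4 neurofilament genes, 7 genes of microtubules and the growth cone, 3 neuronal RNA-binding proteins and 4 other neuronal genes.

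The groups were Braf Smarcb1 KO, Braf Arid1a KO and Braf Arid2 KO, each given CKI or vehicle, Braf alone given CKI or vehicle, untreated Arid1a KO, and untreated wild type (WT). Braf stands for Braf(V600E), a mutation that keeps the kinase and the MAPK pathway below it active, and all 8 treated groups carried it, so that the knockouts are set against Braf thyroids and not against normal ones. Arid1a, Arid2 and Smarcb1 encode subunits of the SWI/SNF complexes, which move nucleosomes: Arid1a belongs to the BAF form, Arid2 to the PBAF form, and Smarcb1 to both. CKI is the MEK inhibitor CH5126766, and it or vehicle was given for 8 days, with tissue taken about 2 h after the last dose. Each group had 3 libraries, except Braf Arid2 KO with 2 under CKI and 2 under vehicle, which makes 28 libraries of 30 samples in the labels. The recombinase and the cells it acted in, the age and the sex are not given in the sources used here. Nothing in the labels ties each library to an animal of its own, and the p-values therefore reflect only how these libraries vary.

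Depth was 23879271 to 34400066 counts per library, and levels are given as CPM (counts as a share of the TMM-adjusted library total, so that libraries of unequal depth can be compared). The labels' protocol text describes whole thyroids frozen for WT, Arid2 and Smarcb1 mice and, for thyroids in general, sorting of YFP+ cells from a dissociated gland. If the first applied to Smarcb1 and Arid2 and the second to Braf and Arid1a, genotype and preparation cannot be told apart in a comparison with Braf or Arid1a KO. By that text Braf Arid2 KO was prepared like Braf Smarcb1 KO, so the members are also set against Braf Arid2 KO after the comparison with Braf; the other gene lists are set against Braf alone. In bulk RNA, fewer cells of a type and less RNA per cell cannot be told apart.

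The targeted genes were read first. Smarcb1 had 2.28, 10.03 and 17.9 CPM in Braf Smarcb1 KO vehicle libraries, against 57.0, 101 and 131 CPM in Braf vehicle libraries, a log2 fold change of -3.26 ± 0.62 (SE; adjusted p = 0.000592, edgeR quasi-likelihood test with Benjamini-Hochberg adjustment, as all adjusted p below). Under CKI it had 11.9, 18.1 and 47.4 CPM in Braf Smarcb1 KO, against 187, 194 and 216 CPM in Braf (-2.95 ± 0.61, adjusted p = 0.00188). Arid1a had 12.0 to 15.9 CPM in libraries labelled Braf Arid1a KO, vehicle, against 11.6 to 30.9 CPM in Braf vehicle, and Arid2 had 15.5 and 37.5 CPM in those labelled Braf Arid2 KO, vehicle, against 7.03 to 19.7 CPM in Braf vehicle. Neither passed the test (adjusted p = 0.404 for Arid1a and 0.189 for Arid2). In untreated Arid1a KO libraries Arid1a had 21.8 to 27.3 CPM, against 27.9 to 39.8 CPM in WT libraries (adjusted p = 0.473). Smarcb1 was also low there, with 15.1, 22.3 and 62.5 CPM in Arid1a KO against 74.8, 111.4 and 151.6 CPM in WT (-1.76 ± 0.58, adjusted p = 0.0373), a group labelled for Arid1a alone. Arid2 was lower in Braf vehicle than in WT libraries (-1.05 ± 0.36, adjusted p = 0.0397). A count over a whole gene does not show the loss of a few exons, so these counts do not check the Arid1a and Arid2 labels. The thyroid marker list (10 genes, Tg among them) summed to 163.1 to 250.9 CPM in Braf Smarcb1 KO vehicle libraries, against 626.8 to 1319 CPM in Braf vehicle libraries and 63770 to 162400 CPM in WT.

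At a nerve terminal, synaptobrevin (Vamp2) on the vesicle zips together with syntaxin (Stx1a) and Snap25 on the cell membrane to drive fusion, synaptotagmins sense the calcium that triggers it, complexins clamp it, and synapsins tether the reserve of vesicles. Gad1 and Gad2 make GABA, which Slc32a1 loads into vesicles, while Slc17a6 and Slc17a7 load glutamate. Neurofilaments and neuronal tubulin give the axon its calibre and tracks, and outside neurons many of these genes are held off by the repressor REST, which binds a DNA element called RE1. Thyroid tissue also holds C cells, neuroendocrine cells that make calcitonin and use some of the same vesicle genes, besides nerve fibres.

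Promoters are shown for 5 of the members with higher levels in Braf Smarcb1 KO than in Braf, Braf Arid1a KO and Braf Arid2 KO, because these genes moved together in the results that follow and the letters let the reader look for elements they share. RefSeq promoters (build GRCm38.p6) were matched for 24 of the 34 members, with 37 start sites; Nefl, Nefm, Nefh, Snap25, Syt4, Syt5, Gap43, Stmn2, Mapt and Vamp2 had none in the table. Each is 300 bases long, from upstream of the annotated start to just past it, written 5′ to 3′ on the gene's own strand. Capitals mark, on either strand, the left or right arm of the RE1 core (CAGCACC or GGACAGC), the E-box CAGCTG that neuronal helix-loop-helix factors can bind, or TATAAA. For Lingo2 and Syt1, which have 2 start sites each in the table, the site with a marked motif is shown, and the other site held none. Syp was also higher in these comparisons, and its promoter, which held none of the marked motifs, is not shown. Every sequence below therefore holds a marked motif by choice.
Gad1, chr2:70561879-70562178, plus strand: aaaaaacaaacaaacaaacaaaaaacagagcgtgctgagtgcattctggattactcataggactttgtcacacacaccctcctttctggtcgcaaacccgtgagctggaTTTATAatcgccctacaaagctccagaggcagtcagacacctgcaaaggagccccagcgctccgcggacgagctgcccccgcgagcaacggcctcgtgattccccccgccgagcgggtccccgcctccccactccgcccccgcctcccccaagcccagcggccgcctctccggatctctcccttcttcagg
Klhl1, chr14:96518985-96519284, minus strand: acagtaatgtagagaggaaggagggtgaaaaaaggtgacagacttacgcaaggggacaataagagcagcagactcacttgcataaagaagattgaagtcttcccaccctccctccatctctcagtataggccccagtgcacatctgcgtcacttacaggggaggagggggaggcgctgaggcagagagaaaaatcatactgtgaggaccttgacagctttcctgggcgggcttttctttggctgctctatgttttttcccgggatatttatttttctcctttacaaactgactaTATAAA
Lingo2, chr4:35845155-35845454, minus strand: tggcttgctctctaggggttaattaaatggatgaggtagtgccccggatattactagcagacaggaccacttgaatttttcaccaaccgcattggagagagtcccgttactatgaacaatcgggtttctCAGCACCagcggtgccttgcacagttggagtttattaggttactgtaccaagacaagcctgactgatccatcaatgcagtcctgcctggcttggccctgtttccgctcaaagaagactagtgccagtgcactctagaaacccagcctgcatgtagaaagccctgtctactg
Tubb3, chr8:123411303-123411602, plus strand: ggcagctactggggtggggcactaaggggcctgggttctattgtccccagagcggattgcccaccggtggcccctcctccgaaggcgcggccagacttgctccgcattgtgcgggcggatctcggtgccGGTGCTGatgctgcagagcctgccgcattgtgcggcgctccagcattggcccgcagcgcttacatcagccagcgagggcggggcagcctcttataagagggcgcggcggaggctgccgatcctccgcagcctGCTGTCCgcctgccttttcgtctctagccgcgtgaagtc
Syt1, chr10:109009062-109009361, minus strand: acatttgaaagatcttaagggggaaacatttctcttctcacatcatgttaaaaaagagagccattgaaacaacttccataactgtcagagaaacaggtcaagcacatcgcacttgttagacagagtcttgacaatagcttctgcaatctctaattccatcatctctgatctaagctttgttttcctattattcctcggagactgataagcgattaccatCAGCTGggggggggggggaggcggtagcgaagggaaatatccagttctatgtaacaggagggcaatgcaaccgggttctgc

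In these letters Gad1 and Klhl1 held TATAAA, Lingo2 the left RE1 arm, Tubb3 both RE1 arms apart from each other, and Syt1 the E-box. The full RE1 core, CAGCACC and GGACAG with NN between them, was in 0 of the 37 member promoters and in 12 of all 32851 promoters (0.037%). Its left arm was in 10.8% of member promoters and 7.14% of all promoters, and the right arm GGACAGC in 8.11% and 6.56%. CAGCTG was in 32.4% of member promoters, those of 9 genes, and in 16.3% of all promoters. TATAAA was in 13.5% and 13.6%. TGACTCA, the AP-1 element, was in 0 member promoters and 5.20% of all promoters. Member promoters also had more CpG (median 17 against 7) and more G and C (57.0% against 52.7%). A match is a description of letters, and no match says only that they are not in this window.

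Among the groups with Braf, Smarcb1 loss went with the broadest expression of these genes. At a level of 0.5 CPM, 25 to 26 of the 34 genes were detected per Braf Smarcb1 KO vehicle library, 11 to 15 in Braf Arid1a KO, 17 to 19 in Braf Arid2 KO and 13 to 16 in Braf alone. Under CKI the numbers were 23 to 26 with Smarcb1 loss, 7 to 11 with Arid1a loss, 11 to 13 with Arid2 loss and 11 to 13 in Braf alone. Untreated Arid1a KO libraries had 17 to 18 and WT libraries 20 to 23. No library of another group had more than 23, the highest number in WT and the lowest in Braf Smarcb1 KO.

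**Figure D1:**
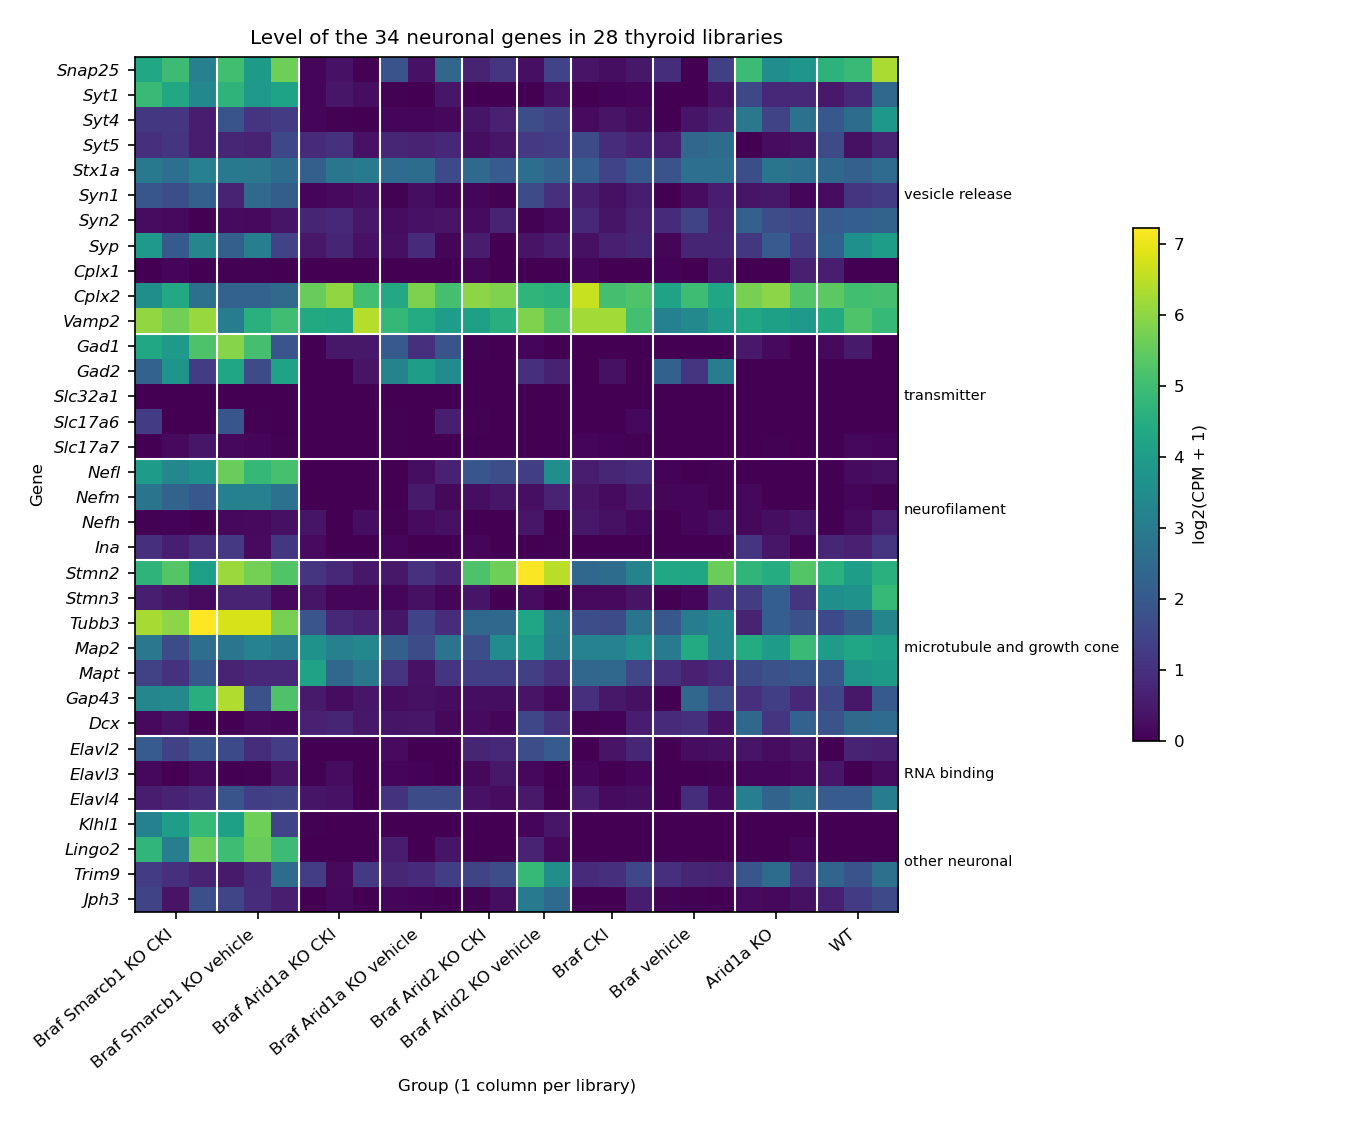
Level of each of the 34 genes (rows, by role) in each of 28 libraries (columns, by group), as log2(CPM + 1). Braf Smarcb1 KO libraries are bright in Snap25, Syt1, Tubb3, Gad1, Nefl, Klhl1 and Lingo2, which are dark in most libraries of Braf alone, and WT libraries are bright in another set that holds Snap25, Syp, Stmn3 and Elavl4.

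Against Braf under vehicle, 15 of the 34 members rose with Smarcb1 loss and 3 fell. The 15 include Klhl1, which passed the filter on low counts through the Braf Smarcb1 KO libraries alone and so had to differ, and 14 rose without it, here and under CKI. Over all genes tested, 28.6% passed, with 14.4% higher and 14.2% lower. The median log2 fold change was 2.47 over the 31 tested members, also with genes that had 0 counts in a group set at their bound, 2.34 without the 2 that entered through those libraries (Klhl1 and Slc17a6), and 0.03 over all genes. Under CKI 15 rose and 2 fell, against 7.87% and 9.19% of all genes, with a median of 2.87 over members, 2.19 without those 2, and 0.03 over all genes. Of these, 12 rose and 2 fell under both treatments. The 2 treatments use separate libraries of both genotypes.

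Among the vesicle release genes, 5 of 11 rose and 2 fell under vehicle, and again 5 rose and 2 fell under CKI. Snap25, the membrane SNARE, had 14.3, 31.6 and 48.7 CPM in Braf Smarcb1 KO vehicle libraries, against 0, 0.917 and 1.57 CPM in Braf vehicle libraries. The groups did not overlap, with Braf Smarcb1 KO above Braf as for 19.2% of all genes tested under vehicle. The log2 fold change was 5.25 ± 1.05 (SE, adjusted p = 0.00093). Under CKI it had 7.90, 18.9 and 29.7 CPM in Braf Smarcb1 KO, against 0.211, 0.292 and 0.379 CPM in Braf (5.97 ± 1.11, adjusted p = 0.000823).

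Syt1, the calcium sensor of fast release, had 14.0, 17.1 and 25.1 CPM in Braf Smarcb1 KO vehicle libraries, against 0, 0 and 0.275 CPM in Braf vehicle libraries (7.56 ± 1.30, adjusted p = 0.000297). Under CKI it had 9.07, 18.7 and 28.7 CPM in Braf Smarcb1 KO, against 0, 0.0421 and 0.0689 CPM in Braf. With only 3 counts in all Braf CKI libraries, the pooled ratio was 517, with a 95% counting interval of 177 to 2510 that covers counting error only. All 6 Braf Smarcb1 KO libraries were above all 6 Braf libraries, and the share of all genes with that order was not counted.

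Syp, the vesicle membrane protein synaptophysin, had 1.80, 3.59 and 7.58 CPM in Braf Smarcb1 KO vehicle libraries, against 0.102, 0.668 and 0.687 CPM in Braf vehicle libraries (3.12 ± 0.91, adjusted p = 0.0139). This call was lost without the second Braf Smarcb1 KO vehicle library (adjusted p = 0.0684). Under CKI Syp had 3.10, 9.15 and 13.9 CPM in Braf Smarcb1 KO, against 0.260, 0.548 and 0.689 CPM in Braf (4.12 ± 0.94, adjusted p = 0.00428).

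Syn1, a synapsin, rose by 3.64 ± 0.92 under vehicle (adjusted p = 0.0056; 0.0686 in a fit of only the groups compared) and by 2.87 ± 0.88 under CKI (adjusted p = 0.0267), and it shares exon sequence on the opposite strand with Araf. Its levels stayed low, 0.652 to 4.51 CPM in Braf Smarcb1 KO vehicle libraries and 0 to 0.472 CPM in Braf vehicle libraries. Syt4, a synaptotagmin of dense-core vesicles, rose under vehicle (2.47 ± 0.80, adjusted p = 0.0243) and had 2.19 ± 0.81 under CKI (adjusted p = 0.0671). Stx1a passed under CKI (1.25 ± 0.42, adjusted p = 0.0409), with 5.17 to 7.79 CPM in Braf Smarcb1 KO and 1.73 to 3.44 CPM in Braf, and not under vehicle (0.44 ± 0.41, adjusted p = 0.445). The calls of Syt4 and Stx1a were each lost when any of several single libraries was left out.

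Cplx2, a complexin, moved the other way. It had 3.83, 3.86 and 4.66 CPM in Braf Smarcb1 KO vehicle libraries, against 16.8, 18.2 and 30.4 CPM in Braf vehicle libraries, a fall of -2.41 ± 0.46 (adjusted p = 0.000663). Under CKI it had 5.34, 11.2 and 19.4 CPM in Braf Smarcb1 KO, against 33.4, 36.5 and 96.7 CPM in Braf (-2.21 ± 0.45, adjusted p = 0.00186). Syn2, the other synapsin, also fell, with 0.131 to 0.330 CPM in Braf Smarcb1 KO vehicle libraries against 0.629 to 1.77 CPM in Braf vehicle libraries (-2.39 ± 0.72, adjusted p = 0.0155) and -2.44 ± 0.74 under CKI (adjusted p = 0.0262). Cplx1 was near 0 throughout, and Syt5 and Vamp2 did not pass under either treatment (Vamp2 0.91 ± 0.51 under vehicle, adjusted p = 0.188).

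The transmitter genes split by gene. Gad1, which makes the bulk of neuronal GABA, had 13.7, 18.9 and 36.3 CPM in Braf Smarcb1 KO CKI libraries and 2.75, 33.2 and 59.5 CPM in Braf Smarcb1 KO vehicle libraries, against 0 counts in all 6 Braf libraries. Set against a floor of 3 counts over the group, Gad1 was at least 820-fold higher under vehicle and at least 643-fold higher under CKI (adjusted p = 0.000168 and 0.00031). Gad2, the synaptic isoform, was not at 0 in Braf: it had 2.12, 16.9 and 18.1 CPM in Braf Smarcb1 KO vehicle libraries, against 1.16, 3.77 and 7.20 CPM in Braf vehicle libraries, which overlap (1.61 ± 1.05, adjusted p = 0.264). Under CKI Gad2 had 1.44, 3.87 and 12.4 CPM in Braf Smarcb1 KO, against 0, 0 and 0.253 CPM in Braf (6.19 ± 1.40, adjusted p = 0.00546).

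The transporters that load vesicles did not follow Gad1. Slc32a1, the GABA transporter, had 0 counts in all 28 libraries. Slc17a6 was seen mainly in 1 Braf Smarcb1 KO library of each treatment, at 1.45 CPM under CKI and 2.82 CPM under vehicle, with 0 to 0.0327 CPM in the other Braf Smarcb1 KO libraries, and it did not pass (adjusted p = 0.354 under CKI and 0.0919 under vehicle). It entered the test through the Braf Smarcb1 KO libraries alone. Slc17a7 stayed at or below 0.347 CPM in every library and was not tested.

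Of the neurofilament genes, Nefl, Nefm and Ina rose under both treatments and Nefh under neither. Nefl, the light chain, had 26.8, 33.5 and 47.7 CPM in Braf Smarcb1 KO vehicle libraries, against 0, 0.0393 and 0.0509 CPM in Braf vehicle libraries. With 2 counts in all Braf vehicle libraries the pooled ratio was 1330 (95% counting interval 367 to 11000, adjusted p = 2.23e-05). Under CKI Nefl had 9.09, 11.4 and 14.6 CPM in Braf Smarcb1 KO, against 0.487, 0.716 and 0.861 CPM in Braf (4.08 ± 0.86, adjusted p = 0.00316).

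Nefm, the medium chain, had 5.43, 7.91 and 8.07 CPM in Braf Smarcb1 KO vehicle libraries, against 0.0393, 0.0723 and 0.102 CPM in Braf vehicle libraries (6.59 ± 1.05, adjusted p = 0.000168), and 3.88 ± 0.89 under CKI (adjusted p = 0.0049). The GENCODE annotation places exons of Nefl and Nefm on opposite strands of shared sequence, and the labels do not state whether strand was kept, so some reads of the 2 genes cannot be told apart. Ina, alpha-internexin, had 0.163, 1.25 and 1.27 CPM in Braf Smarcb1 KO vehicle libraries and 0 counts in Braf libraries, at least 21.7-fold higher under vehicle and at least 23.4-fold under CKI (adjusted p = 0.00552 and 0.00771). WT libraries had 0.588 to 1.15 CPM of Ina, and Braf Smarcb1 KO vehicle libraries differed from them by 0.14 ± 1.08 (adjusted p = 0.933). Nefh, the heavy chain, stayed at or below 0.512 CPM in every library.

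Of the 7 microtubule and growth cone genes, 2 rose and 1 fell under vehicle and 3 rose under CKI. Tubb3, the tubulin used to stain neurons, had 52.5, 108 and 109 CPM in Braf Smarcb1 KO vehicle libraries, against 2.90, 7.16 and 9.36 CPM in Braf vehicle libraries (3.79 ± 0.75, adjusted p = 0.000852). Under CKI it had 61.1, 77.0 and 148 CPM in Braf Smarcb1 KO, against 2.23, 2.30 and 5.89 CPM in Braf (4.78 ± 0.79, adjusted p = 0.000269). The 6 Braf Smarcb1 KO libraries were above all 22 others, and the share of all genes with that order was not counted.

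Gap43, a growth cone protein, had 2.48, 36.0 and 80.6 CPM in Braf Smarcb1 KO vehicle libraries, against 0, 2.20 and 4.34 CPM in Braf vehicle libraries, so that 1 knockout library fell within the Braf range (4.17 ± 1.06, adjusted p = 0.00577; 0.0962 in a fit of only the groups compared). Under CKI the groups did not overlap, with 9.07, 9.60 and 22.5 CPM in Braf Smarcb1 KO and 0.241, 0.379 and 0.974 CPM in Braf (4.67 ± 1.11, adjusted p = 0.00565). Of all genes tested, 19% lay above Braf in this way under CKI. Stmn2, a stathmin of growing axons, passed under CKI (2.14 ± 0.46, adjusted p = 0.00241) and not under vehicle (0.89 ± 0.44, adjusted p = 0.13).

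Dcx, doublecortin of migrating neurons, fell under vehicle, with 0 to 0.131 CPM in Braf Smarcb1 KO and 0.275 to 0.977 CPM in Braf (-3.28 ± 1.04, adjusted p = 0.0214), and had -0.44 ± 0.98 under CKI (adjusted p = 0.824). The dendritic Map2, the axonal tau gene Mapt and Stmn3 did not pass under either treatment. Among the RNA-binding proteins, Elavl2 passed under vehicle (3.34 ± 1.20, adjusted p = 0.042), a call lost when any 1 of the 6 libraries was left out (highest adjusted p over the alternatives 0.106). Elavl4 had 2.34 ± 0.89 under vehicle (adjusted p = 0.0526), and Elavl3 was too low to test, with at most 0.393 CPM in any library.

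Klhl1 and Lingo2 had hardly any counts outside Braf Smarcb1 KO. Lingo2, a leucine-rich repeat membrane protein of neurons, had 7.53, 25.8 and 48.0 CPM in Braf Smarcb1 KO CKI libraries and 30.1, 30.8 and 45.9 CPM in Braf Smarcb1 KO vehicle libraries. Braf libraries of both treatments and WT libraries had 0 counts, and no other library exceeded 0.656 CPM. Against the floor of 3 counts, Lingo2 was at least 863-fold higher than in Braf under vehicle and at least 755-fold higher under CKI (adjusted p = 0.0001 and 0.000175).

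Klhl1, an actin-binding kelch protein of neurons, had 8.11, 15.6 and 27.8 CPM in Braf Smarcb1 KO CKI libraries and 1.76, 16.2 and 48.2 CPM in Braf Smarcb1 KO vehicle libraries, against 0 counts in Braf and WT libraries. Against the floor it was at least 548-fold higher than in Braf under vehicle and at least 485-fold higher under CKI, given as a description with no test, since it passed the filter through the Braf Smarcb1 KO libraries alone. The highest level elsewhere was 0.347 CPM, in 1 Braf Arid2 KO vehicle library. Jph3, a junctophilin that ties the endoplasmic reticulum to the cell membrane, had 0.513, 0.882 and 1.87 CPM in Braf Smarcb1 KO vehicle libraries against 0 to 0.0509 CPM in Braf vehicle libraries (pooled ratio 41.3, 95% counting interval 11.1 to 345, adjusted p = 0.00929), and it did not pass under CKI (adjusted p = 0.0571). Trim9, a ubiquitin ligase of axon branching, did not pass under either treatment.

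**Figure D2:**
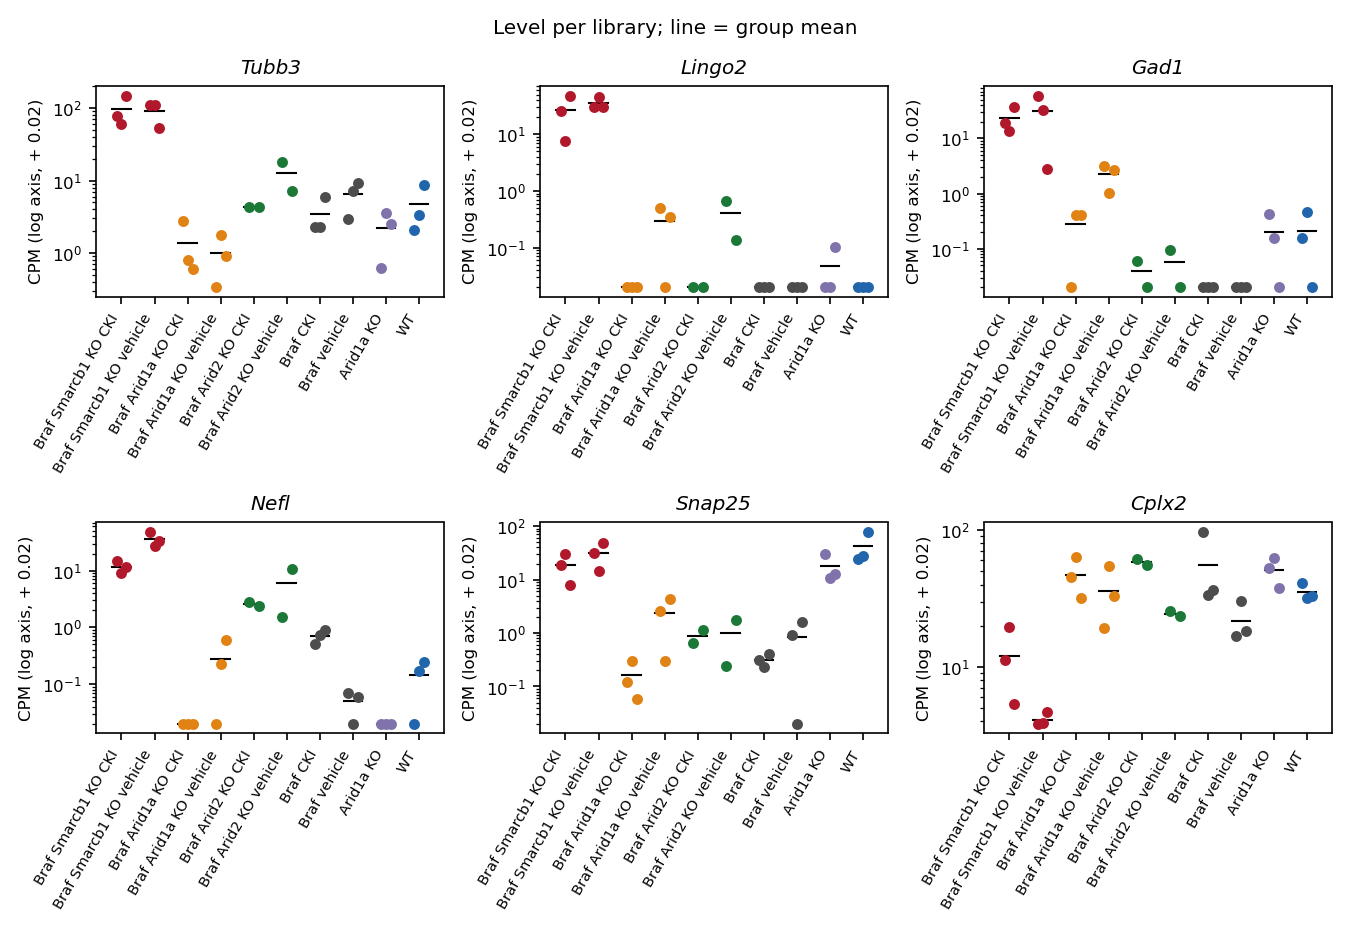
CPM per library (points, log axis after adding 0.02) of 6 members in the 10 groups, with the group mean as a line. Tubb3, Lingo2, Gad1 and Nefl stand highest in Braf Smarcb1 KO, Snap25 is as high in WT, and Cplx2 is lowest in Braf Smarcb1 KO.

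Set directly against the other knockouts, Braf Smarcb1 KO had 16 members higher and 1 lower than Braf Arid1a KO under vehicle (13.5% and 13.6% of all genes), and 17 higher and 3 lower under CKI (10.6% and 11.3%). Against Braf Arid2 KO it had 10 higher and 3 lower under vehicle (7.58% and 9.03%), and 12 higher and 1 lower under CKI (13.3% and 10.2%). The number higher than in Braf Arid2 KO under vehicle was 3 without Braf Arid2 KO vehicle replicate 2, and under CKI it was 7 and 5 without Braf Arid2 KO CKI replicates 3 and 4; a fit with 1 library in a group assumes that it varies like the other groups. Without Klhl1, 15 were higher than in Braf Arid1a KO under vehicle and 16 under CKI, and 9 were higher than in Braf Arid2 KO under vehicle and 11 under CKI. These comparisons share the Braf Smarcb1 KO libraries with those against Braf, so they are given side by side and not as separate support.

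Snap25, Syt1, Syp, Gad1, Nefm, Tubb3, Gap43 and Lingo2, 8 members in all, or 9 with Klhl1, were higher in Braf Smarcb1 KO than in Braf, in Braf Arid1a KO and in Braf Arid2 KO under both treatments. Tubb3, for example, exceeded Braf Arid1a KO by 6.53 ± 0.86 (adjusted p = 1.07e-05) and Braf Arid2 KO by 2.84 ± 0.84 (adjusted p = 0.0232) under vehicle, where Braf Arid2 KO had 7.13 and 18.1 CPM. Syt1 exceeded Braf Arid2 KO by 7.09 ± 1.52 (adjusted p = 0.00267), and Lingo2 by 6.50 ± 1.25 (adjusted p = 0.00303). Against Braf Arid2 KO, the calls of Gad1 and Lingo2 held without any 1 library under both treatments, those of Gap43 under vehicle alone and those of Syt1 and Tubb3 under CKI alone; those of Snap25, Syp and Nefm were lost under each treatment without 1 of the Braf Arid2 KO libraries. Nefl did not pass against Braf Arid2 KO (2.56 ± 0.92, adjusted p = 0.0656 under vehicle).

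Other members called against Braf did not all stand above Braf Arid2 KO under vehicle. Ina was higher (5.28 ± 1.77, adjusted p = 0.0478) and Dcx lower (-4.37 ± 1.10, adjusted p = 0.008). Syn1 (0.88 ± 0.92), Syt4 (-0.22 ± 0.81), Syn2 (1.36 ± 0.93) and Gad2 (3.98 ± 1.38) did not pass. Jph3 (-2.37 ± 1.10), Elavl2 (-0.90 ± 1.14) and Stmn2 (-1.13 ± 0.48) did not pass either (adjusted p = 0.155, 0.653 and 0.114), and their Braf Smarcb1 KO libraries all lay below both Braf Arid2 KO libraries, as for 20.3% of all genes. Trim9 was lower (-3.25 ± 0.84, adjusted p = 0.00954). Under CKI Syn1 (5.60 ± 1.27, adjusted p = 0.0032) and Gad2 (adjusted p = 0.00492) were higher, and Stx1a (0.75 ± 0.47), Stmn2 (-0.70 ± 0.48), Ina (adjusted p = 0.0612), Nefl (2.18 ± 0.91) and Syn2 (-1.94 ± 0.80) did not pass. Cplx2 was lower in Braf Smarcb1 KO in the same comparisons, by -3.12 ± 0.47 against Braf Arid1a KO and -2.58 ± 0.49 against Braf Arid2 KO under vehicle (adjusted p = 4.49e-05 and 0.00103).

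**Figure D3:**
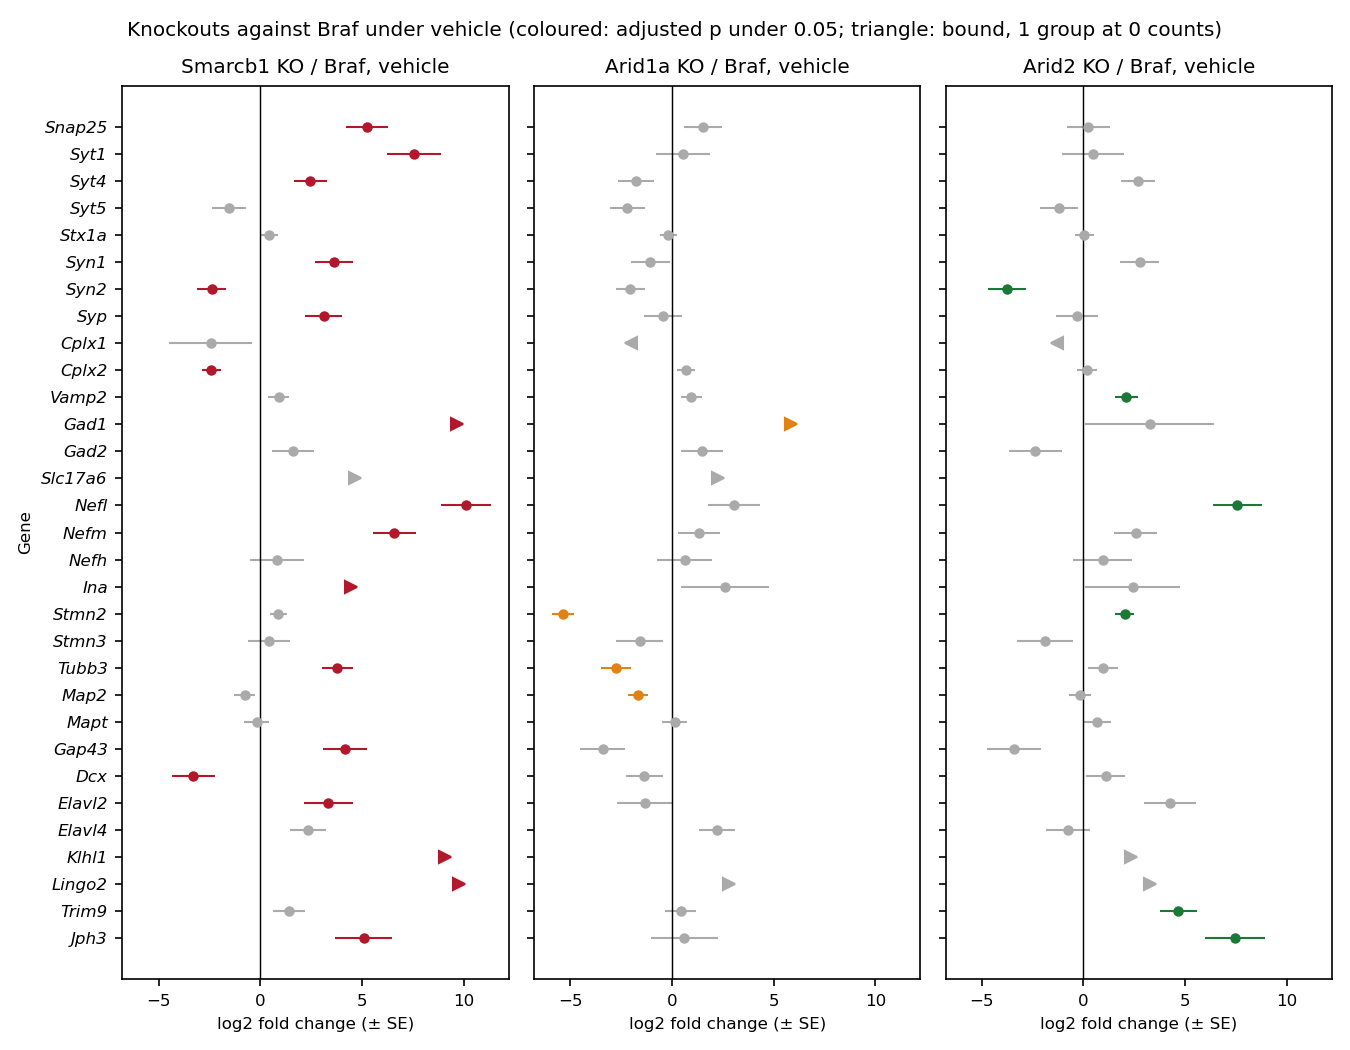
Log2 fold change ± SE of the tested members in Braf Smarcb1 KO, Braf Arid1a KO and Braf Arid2 KO against Braf, all under vehicle; coloured points have an adjusted p under 0.05, triangles are bounds where 1 group had 0 counts, and a gene with 0 counts in both groups has no point. Most members lie to the right of 0 with Smarcb1 loss, Stmn2, Tubb3 and Map2 are the coloured points on the left with Arid1a loss, and Nefl and Jph3 lie farthest to the right with Arid2 loss.

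Under vehicle 1 member was higher in Braf Arid1a KO than in Braf and 3 were lower, against 4.25% and 5.31% of all genes (9.56% in either direction), with a median of 0.14 over members and 0.00 over all genes. These shares are near those over all genes. The one that rose was Gad1, with 1.02, 2.70 and 3.14 CPM in Braf Arid1a KO against 0 counts in Braf, at least 58-fold higher (adjusted p = 0.00958). Stmn2 had 0.381, 0.637 and 1.06 CPM in Braf Arid1a KO vehicle libraries, against 18.4, 19.2 and 47.7 CPM in Braf vehicle libraries, a fall of -5.37 ± 0.54 (adjusted p = 1.8e-05). Tubb3 fell by -2.74 ± 0.75 (adjusted p = 0.0236) and Map2 by -1.67 ± 0.51 (adjusted p = 0.04).

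Under CKI 0 members were higher in Braf Arid1a KO and 3 were lower (1.03% and 1.28% of all genes). At an unadjusted p under 0.05, 3 were higher and 4 lower, and DESeq2 also called 0 higher. Stmn2 again fell, with 0.388, 0.751 and 1.18 CPM in Braf Arid1a KO against 4.48, 4.89 and 8.44 CPM in Braf (-2.92 ± 0.49, adjusted p = 0.0022). Nefl and Nefm had 0 counts in Braf Arid1a KO under CKI and were at least 18.9-fold and 7.98-fold lower than in Braf (adjusted p = 0.0197 and 0.0385). In a fit of only the groups compared none of these 3 calls was made.

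Arid2 loss went with a smaller set of members, and under vehicle more than under CKI. Under vehicle 5 members were higher in Braf Arid2 KO than in Braf and 1 was lower, against 2.33% and 1.28% of all genes (3.61% in either direction), with a median of 0.95 over members and -0.04 over all genes. Trim9 had 10.9 and 27.8 CPM in Braf Arid2 KO against 0.629, 0.687 and 0.968 CPM in Braf (4.67 ± 0.89, adjusted p = 0.0102). Stmn2 had 87.2 and 144 CPM in Braf Arid2 KO against 18.4 to 47.7 CPM in Braf (2.02 ± 0.48, adjusted p = 0.027), its highest level in the series.

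Jph3 had 4.58 and 6.71 CPM in Braf Arid2 KO vehicle libraries, with 2 counts in all Braf vehicle libraries (pooled ratio 206, counting interval 56.6 to 1710, adjusted p = 0.0131). Nefl had 1.53 and 10.7 CPM in Braf Arid2 KO (ratio 218, interval 59.8 to 1810, adjusted p = 0.00464), below every Braf Smarcb1 KO vehicle library. Vamp2, the vesicle SNARE, had 37.0 and 55.7 CPM in Braf Arid2 KO against 8.05 to 14.9 CPM in Braf (2.10 ± 0.56, adjusted p = 0.0417), and Syn2 fell by -3.76 ± 0.94 (adjusted p = 0.033). With 2 libraries in the group, the number that rose was 1 without Braf Arid2 KO vehicle replicate 2 or Braf vehicle replicate 4, 2 without Braf Arid2 KO vehicle replicate 4 and 3 without Braf vehicle replicate 2, and 0 rose in a fit of only the groups compared.

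Under CKI 1 member was higher in Braf Arid2 KO than in Braf and 0 were lower (0.352% and 0.915% of all genes). At an unadjusted p under 0.05, 3 were lower, and DESeq2 called 1 lower. Stmn2 was the one that rose, with 36.2 and 48.9 CPM in Braf Arid2 KO against 4.48 to 8.44 CPM in Braf (2.84 ± 0.49, adjusted p = 0.00563). Trim9 (0.68 ± 0.83), Jph3 (-0.33 ± 1.34) and Vamp2 (-1.64 ± 0.60) did not pass there.

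In Braf Smarcb1 KO, 0 members were higher and 0 lower under CKI than under vehicle (1.80% and 2.05% of all genes, 3.85% in either direction), with 5 members at an unadjusted p under 0.05, and DESeq2 called 2 higher and 0 lower. Tubb3 differed by 0.09 ± 0.67 and Syt1 by 0.01 ± 0.91. Nefl had 9.09 to 14.6 CPM under CKI and 26.8 to 47.7 CPM under vehicle (-1.62 ± 0.76, adjusted p = 0.27). These do not overlap, as for 10.2% of all genes that lay below under CKI. The response of Braf Smarcb1 KO minus that of Braf passed for 0 members (0.305% of all genes passed, 0.110% higher and 0.195% lower), with 3 at an unadjusted p under 0.05 and 1 lower by DESeq2.

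In Braf alone, 4 members were higher and 2 lower under CKI than under vehicle (7.96% and 5.01% of all genes). Vamp2 had 32.2, 73.7 and 74.2 CPM under CKI, against 8.05, 9.51 and 14.9 CPM under vehicle (2.47 ± 0.53, adjusted p = 0.00732). Cplx2 (1.35 ± 0.44), Mapt (2.15 ± 0.61) and Nefl, which stayed below 1 CPM, also rose (adjusted p = 0.0469, 0.0257 and 0.0234). Stmn2 fell, with 4.48 to 8.44 CPM under CKI and 18.4 to 47.7 CPM under vehicle (-2.26 ± 0.46, adjusted p = 0.00518), and Gad2 fell (-5.65 ± 1.38, adjusted p = 0.0164).

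In Braf Arid1a KO, Mapt was higher under CKI than under vehicle, with 4.47 to 16.8 CPM under CKI and 0.285 to 1.17 CPM under vehicle (3.40 ± 0.63, adjusted p = 0.00418). Gad2 (-6.76 ± 1.39) and Snap25 (-4.02 ± 1.11) were lower there (adjusted p = 0.0118 and 0.039); over all genes 2.51% rose and 2.00% fell. In Braf Arid2 KO, 0 members were higher (2 at an unadjusted p under 0.05, 0 by DESeq2) and 2 were lower, Jph3 (-5.41 ± 1.51, adjusted p = 0.0497) and Syn1 (-4.66 ± 1.27, adjusted p = 0.0437), against 1.41% and 1.96% of all genes (3.37% in either direction). Both of these were lost without any 1 of the 4 libraries.

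**Figure D4:**
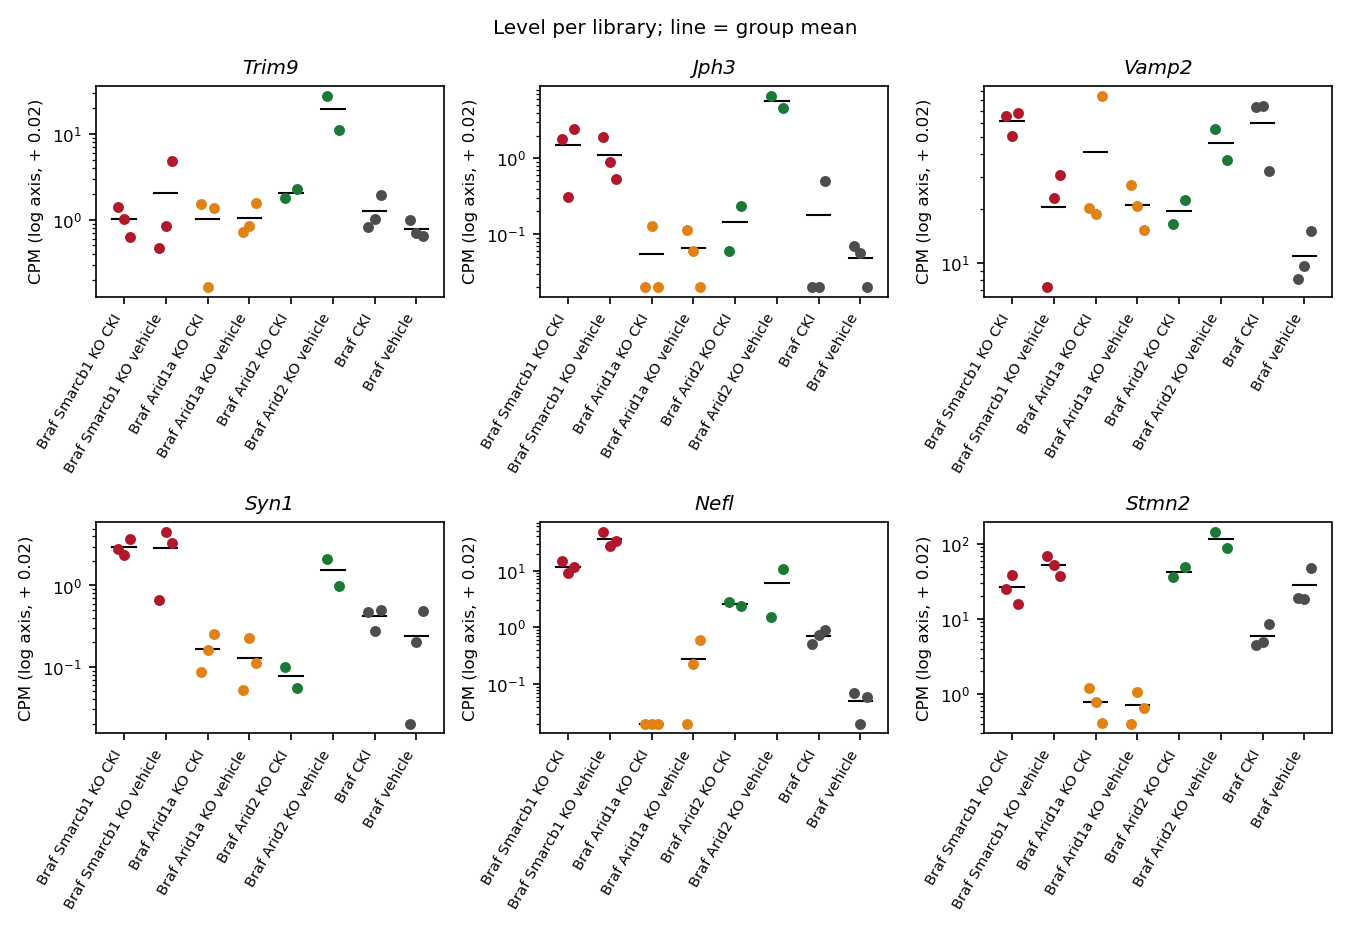
CPM per library (points, log axis after adding 0.02) of 6 members in the 8 groups with Braf, with the group mean as a line. In Braf Arid2 KO, Trim9 and Jph3 are low under CKI and high under vehicle, Stmn2 is lowest in Braf Arid1a KO, and Vamp2 is high in Braf under CKI.

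Normal thyroid held its own share of these genes. Against WT, 1 member was higher and 11 were lower in Braf vehicle libraries (9.84% and 10.1% of all genes). These comparisons set Braf tissue that received vehicle against untreated tissue. The members that fell were Snap25, Syt1, Syt4, Syp, Ina, Stmn3, Mapt, Dcx, Elavl4, Trim9 and Jph3, for example Snap25 with 0 to 1.57 CPM in Braf against 24.6, 28.2 and 77.6 CPM in WT (-5.72 ± 1.07, adjusted p = 0.000617). Gad2 rose, with 1.16 to 7.20 CPM in Braf and 0 counts in WT, at least 115-fold higher (adjusted p = 0.00174). In untreated Arid1a KO, 3 members were lower than in WT, Mapt, Stmn3 and Syt5, and 0 were higher, against 11.8% and 6.84% of all genes; at an unadjusted p under 0.05, 0 were higher and DESeq2 called 0 higher.

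Against WT, Braf Smarcb1 KO vehicle libraries had 10 members higher and 6 lower (20.3% and 19.8% of all genes), or 9 higher without Klhl1. The number lower is near the share over all genes. Of the 8 named above, 6 were also higher than in WT, and Snap25 and Syp were not. Snap25 was at -0.46 ± 0.86 (adjusted p = 0.694) and Syp at -1.25 ± 0.83 (adjusted p = 0.241). Tubb3 exceeded WT by 4.26 ± 0.77 (adjusted p = 0.000161), with 2.06 to 8.67 CPM in WT. Stmn3 (-5.13 ± 1.12), Mapt (-3.79 ± 0.65), Dcx (-5.81 ± 1.09), Syn2 (-4.11 ± 0.75), Cplx2 (-3.10 ± 0.47) and Syt4 (-2.01 ± 0.75) were lower than in WT.

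Markers of cells that could bring these transcripts into the tissue are given for whole lists. The 8 C cell markers summed to 49.4 to 201.1 CPM in Braf Smarcb1 KO CKI libraries and 40.1 to 138.3 CPM in Braf Smarcb1 KO vehicle libraries, against 651.3 to 670.8 CPM in Braf CKI, 115.1 to 475.1 CPM in Braf vehicle and 12770 to 33550 CPM in WT libraries. With Smarcb1 loss against Braf, 0 of the 8 rose and 1 fell under vehicle (1 higher at an unadjusted p under 0.05), and 0 rose and 2 fell under CKI (1 higher unadjusted). The 1 that fell under vehicle is near the share of all genes, of which 14.4% rose and 14.2% fell. None of the 8 was at 0 in all Braf Smarcb1 KO vehicle libraries, though Chgb and Sst stayed below 0.5 CPM. The vehicle sums of the 2 genotypes overlap. Scg5, which many endocrine and neural cells make, gave 7.50 to 87.7 CPM of the sum in Braf Smarcb1 KO vehicle libraries, against 72.3 to 360.1 CPM in Braf vehicle libraries. The other 7 markers summed to 20.9 to 50.6 CPM in Braf Smarcb1 KO and 41.5 to 115 CPM in Braf. The part of C cells in the rise of the members was not tested. Across Braf and WT the C cell markers were lower in Braf together with the 11 members that fell, and their part in that difference was not tested.

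The 8 Schwann cell markers summed to 23.5 to 73.0 CPM in Braf Smarcb1 KO vehicle libraries, against 247.4 to 333.9 CPM in Braf vehicle libraries, and 1 rose and 5 fell. The one that rose, Foxd3, is a factor of neural crest and early glia, with 2.05, 3.60 and 4.99 CPM in Braf Smarcb1 KO vehicle libraries against 0, 0.0393 and 0.145 CPM in Braf vehicle libraries (5.66 ± 1.06, adjusted p = 0.000932). The 10 markers of peripheral neurons came to 16.5 to 40.4 CPM in Braf Smarcb1 KO vehicle libraries, against 85.5 to 166.1 CPM in Braf vehicle libraries, and most of this was Npy. Npy fell (-2.87 ± 0.60, adjusted p = 0.00137; under CKI -2.74 ± 0.60, adjusted p = 0.00296). The other 9 markers went the other way, with 6.31 to 9.07 CPM in Braf Smarcb1 KO vehicle libraries against 0.815 to 2.32 CPM in Braf vehicle libraries, and 8.86 to 15.2 CPM in Braf Smarcb1 KO against 1.03 to 2.76 CPM in Braf under CKI. Phox2a, a factor that defines autonomic neurons, had 0 counts in Braf Smarcb1 KO vehicle libraries, and Th, Dbh, Chrna3 and Chrnb4 stayed below 0.5 CPM. Hand2 reached 0.850 CPM there and 0.760 CPM in Braf vehicle libraries (0.07 ± 0.92, adjusted p = 0.981). Of the 6 that could be tested, Prph (peripherin; 2.43 ± 0.68, adjusted p = 0.0106) and Vip rose under vehicle and Npy fell, and Prph rose (4.79 ± 0.76, adjusted p = 0.000179) and Npy fell under CKI. Vip had 3.59 and 4.36 CPM in 2 Braf Smarcb1 KO vehicle libraries and 0 in the third. The part of peripheral neurons in the rise of the members was not tested.

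Lists of other cells were also read with Smarcb1 loss, where 14.4% of all genes rose and 14.2% fell under vehicle. Leukocyte markers summed to 117.2 to 361.6 CPM in Braf Smarcb1 KO vehicle libraries, against 773.2 to 1389 CPM in Braf vehicle libraries, with 4 of 7 lower and 0 higher. Adipocyte markers summed to 0.979 to 8.66 CPM in Braf Smarcb1 KO vehicle libraries, against 27.3 to 199.9 CPM in Braf vehicle libraries, with 2 of 4 tested lower and 0 higher. Of 8 endothelial markers 6 were lower, of 8 fibroblast markers 5, of 8 skeletal muscle markers 1 and of 3 tested parathyroid markers 0, and none of these was higher. Endothelial sums overlapped, with 73.6 to 132.7 CPM in Braf Smarcb1 KO vehicle and 28.7 to 676.8 CPM in Braf vehicle libraries. Fibroblast sums overlapped too (1609 to 2796 against 1128 to 24090 CPM). Skeletal muscle sums (11.6 to 12.4 against 12.6 to 76.9 CPM) and parathyroid sums (6.12 to 11.5 against 17.8 to 39.5 CPM) did not overlap. The skeletal muscle and parathyroid counts are not above the share of all genes that fell. At an unadjusted p under 0.05, 0 markers of these 6 lists were higher under vehicle and 0 parathyroid markers lower. Under CKI 1 leukocyte, 1 adipocyte, 6 endothelial, 0 fibroblast, 0 skeletal muscle and 1 parathyroid marker were lower, and 1 fibroblast and 1 skeletal muscle marker were higher. The shares of all genes under CKI are those given for the members above. The part of these cells in the results on the members was not tested.

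**Figure D5:**
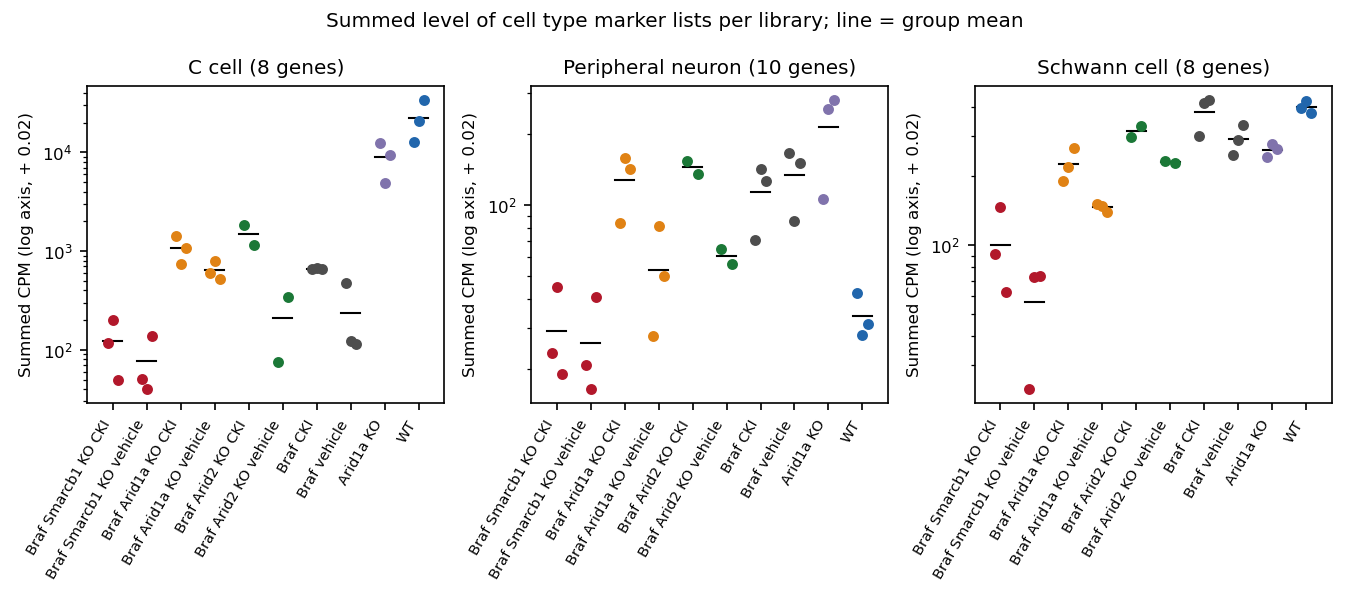
Summed CPM (points, log axis after adding 0.02) of C cell, peripheral neuron and Schwann cell markers per library in the 10 groups, with the group mean as a line. The Braf Smarcb1 KO libraries have low sums of all 3 lists, where the peripheral neuron sum is mostly Npy (the other 9 markers are higher in Braf Smarcb1 KO than in Braf), and the C cell sum is highest in WT.

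Other genes of the synapse and axon were read from lists that do not hold the members. Of 30 further presynaptic genes, 7 rose and 0 fell with Smarcb1 loss under vehicle (0 lower at an unadjusted p under 0.05), and 8 rose and 4 fell under CKI. Of all genes 14.4% rose and 14.2% fell under vehicle, and the shares under CKI are those given for the members above. Those that rose included Dnm1, the dynamin of vesicle retrieval (2.74 ± 0.56, adjusted p = 0.00112), Syt11 (1.64 ± 0.39), Syt2 (2.82 ± 0.68) and Scg3 (3.13 ± 0.80), and under CKI Scg2 (4.36 ± 0.73) and Rims2 (2.42 ± 0.54). Amph (-2.47 ± 0.47) fell under CKI. The lists' median log2 fold changes were 0.95 under vehicle and 0.86 under CKI, against 0.03 over all genes.

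Of 26 postsynaptic and adhesion genes, 7 rose and 0 fell under vehicle (14.4% and 14.2% of all genes), and 8 rose and 0 fell under CKI, with medians of 1.78 and 2.23. At an unadjusted p under 0.05, 0 were lower under vehicle and 2 under CKI. Gria2 and Gria4, AMPA receptor subunits, rose by 5.06 ± 1.05 and 4.85 ± 1.05 under vehicle (adjusted p = 0.00218 and 0.00186), and Nlgn3, a neuroligin, by 4.37 ± 0.99 (adjusted p = 0.00245). Of 24 other cytoskeleton genes, 3 rose under vehicle and 4 under CKI, and 1 fell under each, with medians of 0.15 and -0.45; the vehicle count is near the 14.4% of all genes that rose. Tuba1a, a neuronal alpha-tubulin, had 588 to 1292 CPM in Braf Smarcb1 KO vehicle libraries against 271 to 327 CPM in Braf vehicle libraries (1.63 ± 0.26, adjusted p = 0.000124), and Uchl1 and Prph also rose and Map1a fell.

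Of 12 neuronal RNA-binding genes, 2 rose (Srrm3 and Khdrbs2) and 1 fell (Nova2) under vehicle, and 4 rose and 1 fell under CKI, with medians of -0.01 and 1.02; the vehicle counts are near the shares over all genes. Of 17 other transmitter genes, 16 of them in the table, Slc17a8, a further glutamate transporter, rose under vehicle from a Braf group at 0 counts, while Slc18a1 (-2.97 ± 0.50) and Ddc (-2.80 ± 0.91), genes of amine loading and synthesis, fell; under CKI 2 rose and 2 fell. Of 27 neuronal transcription factors only 13 could be tested, and Pou3f4 and St18 rose and Isl1 and Ebf3 fell under vehicle, with 1 rise and 2 falls under CKI. Over all genes 14.4% rose and 14.2% fell under vehicle, and the vehicle counts of the transcription factors are near those shares. Isl1, also a C cell factor, had 0.949 to 14.6 CPM in Braf Smarcb1 KO vehicle libraries and 12.9 to 33.4 CPM in Braf vehicle libraries.

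Rest itself did not pass with Smarcb1 loss. It had 18.9, 30.2 and 31.5 CPM in Braf Smarcb1 KO vehicle libraries, against 17.1, 21.5 and 24.4 CPM in Braf vehicle libraries (0.35, adjusted p = 0.452), and 0.05 under CKI (adjusted p = 0.946). Read counts do not show the protein or where it binds. Of 11 repressors and corepressors of neuronal genes, 3 rose under vehicle, Hdac2 (2.11 ± 0.57), Rcor3 (1.22 ± 0.37) and Rcor2 (2.87 ± 1.03), and 0 fell (14.4% and 14.2% of all genes). Under CKI 0 rose and 0 fell (0 higher and 0 lower at an unadjusted p under 0.05). The part of Rest and of these genes in the rise of the members was not tested.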

How the data were processed

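The authors deposited a table of whole-number read counts per gene, with no normalization, for mouse thyroid; STAR 2.4, HTSeq 0.6.1, DESeq2 and the build mm9 are named per the submitters' processing notes, with no role or order, and the kit was TruSeq RNA, per the labels' protocols. For Braf Arid2 KO, 1 sample of each treatment was not analysed here. Groups came from the titles and characteristics. The 34 members, the other gene lists, their grouping by role and the tests were chosen with earlier results of these data known. The text names all members, the targeted genes, Rest and its corepressors and, of other lists, up to 4 called genes with the smallest p under each treatment, less those not reported here; Foxd3, Vip, Tg, Npy and the other marker genes named were singled out after their values were seen.

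Counts of 28 libraries were fitted in R 4.3.3 with edgeR 4.0.16 (filterByExpr, which kept 19016 genes; TMM factors 0.723 to 1.25; glmQLFit and glmQLFTest, 1 coefficient for each group), with the spread estimated over all 10 groups at once; Benjamini-Hochberg adjustment ran over all genes tested, with a threshold of 0.05. A group at 0 counts is given a floor of 3 counts over the group, and groups of 1 to 3 counts a ratio with a 95% counting interval. Within groups, the 26 pairs of libraries differed by far more than sampling noise. Older symbols were matched through RefSeq synonyms. Counts without Klhl1 and Slc17a6, and marker sums without Npy or Scg5, were added after the data had been seen. The code was tested on simulated counts. Alternatives were RLE and upper-quartile scaling, no filter, DESeq2 1.42.0, only the groups compared, a block for the replicate number, fits without each library in turn, and 0.1 or 1 CPM as the level of detection. Gene pairs with shared exon sequence came from GENCODE vM21 and promoters from RefSeq, both of build GRCm38, and were joined by name only. CPM is not scaled to gene length, so levels are compared between libraries and not between genes.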

Additional observations from a re-analysis of the deposited data

Results flagged for a closer look

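The response to CKI in Braf Arid2 KO minus that in Braf differed for 5 members by a test of the difference itself, added after the data had been seen and made in the same edgeR quasi-likelihood fit with Benjamini-Hochberg adjustment. All 5 differences were negative, where 7.19% of all genes passed lower and 1.47% higher. The log2 difference was -7.79 for Jph3 (adjusted p = 0.0237), -5.67 for Nefl (adjusted p = 0.0312), -5.49 for Syn1 (adjusted p = 0.0309), -3.98 for Trim9 (adjusted p = 0.0459) and -3.74 for Vamp2 (adjusted p = 0.0143). Vamp2 had 16.4 and 22.2 CPM under CKI and 37.0 and 55.7 CPM under vehicle in Braf Arid2 KO, against 32.2 to 74.2 CPM under CKI and 8.05 to 14.9 CPM under vehicle in Braf. Trim9 had 1.77 and 2.25 CPM under CKI and 10.9 and 27.8 CPM under vehicle in Braf Arid2 KO, against 0.811 to 1.93 CPM under CKI and 0.629 to 0.968 CPM under vehicle in Braf. Syn1 had 0.0357 and 0.0787 CPM under CKI and 0.963 and 2.11 CPM under vehicle in Braf Arid2 KO, against 0.253 to 0.482 CPM under CKI and 0 to 0.472 CPM under vehicle in Braf. Jph3 and Nefl had 2 counts each over the Braf vehicle libraries, so the size of their differences is poorly known. Each Braf Arid2 KO group held 2 libraries, and leaving out 1 library left 0 to 4 of these calls.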

How the results depend on the processing

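Counts of members that rose with Smarcb1 loss held within 1.5 times under every alternative run: 13 to 15 under vehicle and 13 to 16 under CKI without each library, with 15 each in the main fits. Of 159 calls of single members, 88 held under all their alternatives, 262 of 1883 alternative values lost the call and 0 turned sign. By DESeq2 the counts that moved were, for Arid1a loss under vehicle, 2 higher and 6 lower; for Arid2 loss, 8 higher and 2 lower under vehicle and 1 lower under CKI; 6 lower in Arid1a KO against WT; 2 lower in Braf Smarcb1 KO against Braf Arid2 KO under CKI; for CKI against vehicle, 5 lower in Braf Arid1a KO, 5 lower in Braf Arid2 KO and 2 higher in Braf Smarcb1 KO. Differences of CKI response, of which all but that of Smarcb1 KO minus Braf were added after the data had been seen, were by DESeq2 3 higher for Arid1a KO minus Arid2 KO, 1 higher and 2 lower for Arid1a KO minus Braf, 1 higher for Arid2 KO minus Braf, 1 higher for Smarcb1 KO minus Arid1a KO, 4 higher for Smarcb1 KO minus Arid2 KO and 1 lower for Smarcb1 KO minus Braf. In fits of only the groups compared, which have fewer libraries, Smarcb1 loss had 1 lower under each treatment, Arid1a loss 1 lower under vehicle and 0 lower under CKI, Arid2 loss under vehicle 0 higher and 0 lower, and Braf Smarcb1 KO against Braf Arid1a KO under CKI 1 lower. In the same fits CKI against vehicle had 0 higher and 1 lower in Braf Arid1a KO and 1 higher and 6 lower in Braf Arid2 KO, and the response differences had 3 lower for Arid2 KO minus Braf and 1 lower for Smarcb1 KO minus Braf. Without a filter Arid1a loss under vehicle had 2 higher, and upper-quartile scaling left 1 lower for CKI in Braf Arid2 KO. The replicate numbers were not taken as pairs. Deviations from the group means of same-numbered libraries of the 2 treatments had correlations of -0.638 to -0.078, with at most 2 pairs a genotype. So few pairs, in groups of 2 or 3 libraries, cannot decide whether the numbers pair the samples. With the replicate number as a block, the counts that moved were 1 lower for Smarcb1 loss under CKI, 1 lower for Arid1a loss under vehicle, 6 lower for Braf against WT, 0 lower for CKI in Braf Arid1a KO and in Braf Arid2 KO, 1 lower for CKI in Braf and 3 lower for the response of Arid2 KO minus Braf. The cause of these moves was not tested. Without each library in turn, the ranges of the other counts, higher then lower, were 1 to 3 lower for Smarcb1 loss under vehicle and 1 to 2 under CKI; 1 to 2 and 1 to 4 for Arid1a loss under vehicle and 1 to 2 lower under CKI; 1 to 5 and 0 to 1 for Arid2 loss under vehicle and 0 to 1 higher under CKI; 13 to 16 higher for Braf Smarcb1 KO against Braf Arid1a KO under vehicle, with 2 to 3 lower under CKI; 3 to 10 and 1 to 3 against Braf Arid2 KO under vehicle and 5 to 12 higher under CKI; 8 to 10 lower for Braf against WT, 0 to 4 lower for Arid1a KO against WT, and 8 to 10 and 5 to 6 for Braf Smarcb1 KO against WT. For CKI against vehicle they were 1 to 4 and 1 to 3 in Braf, 1 to 3 lower in Braf Arid1a KO, 0 lower in every case in Braf Arid2 KO and 0 to 1 higher in Braf Smarcb1 KO, and for the response differences 0 to 1 and 0 to 2 for Arid1a KO minus Braf and 0 to 4 lower for Arid2 KO minus Braf. The number of members detected moved with its level, to 29 to 30 at 0.1 CPM and 19 to 23 at 1 CPM in Braf Smarcb1 KO vehicle libraries, against 15 to 23 and 7 to 10 in Braf vehicle libraries. WT libraries had 24 to 26 at 0.1 CPM and 17 to 20 at 1 CPM, so at 1 CPM they overlapped Braf Smarcb1 KO vehicle libraries. With 2 or 3 libraries a group and several members under 1 CPM, small differences were not detectable.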
